A study of Homo sapiens with 8 samples.

Results

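HERVH knockdown cells were compared directly with CHD7 knockout cells by RNA-seq, gene by gene and without WT cells as the reference. The comparison was chosen by the sample labels and holds 4 of the 8 libraries of the series, 2 titled HERVH KD and 2 titled CHD7 KO. All samples were of H9, an established line of human embryonic stem cells (hESCs). HERVH knockdown (KD) cells were wild type (CHD7-HA), that is, they carried an HA tag on CHD7, and had been lipofected with LNA-GapmeRs against HERVH 24 h before collection. CHD7 knockout (KO) cells were CHD7 -/-, were made with CRISPR-Cas9, and received no GapmeR. The study describes knockout lines with an InDel or a stop codon in CHD7, each grown from a clone, and states that the line with the stop codon served for its later experiments, while the labels name neither. The GapmeR, the lipofection, the short against the lasting loss, the clone and the HA tag therefore differ between the groups together with the targeted gene, and their parts cannot be told apart here. No library of cells given a control GapmeR was analysed here. The labels do not say whether replicates came from separate cultures, so that p-values measure the spread between these samples, which may be technical.

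CHD7 is an ATP-dependent chromatin remodeller of the chromodomain helicase family that acts at enhancers, and mutations in it cause CHARGE syndrome, a disorder of organs that arise partly from the neural crest. HERVH is a family of human endogenous retroviruses whose copies, driven by long terminal repeats, are transcribed at high levels in hESCs and give rise to noncoding RNAs and to chimeric transcripts of nearby genes. The study put HERVH RNA and CHD7 side by side in hESCs. The question put to these 4 libraries is which genes differ between cells depleted of the RNA and cells without the remodeller, and which do not.

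The KD used 3 GapmeRs, single-stranded DNA oligonucleotides with LNA ends that direct RNase H to a complementary RNA. They are shown because all values of the KD cells rest on them, and they are written 5' to 3' as the study lists them:
SHHERVH_3: ggaagatttgggacga
SHHERVH_4: attgggacctagctcg
SHHERVH_12: atgtggagtgggtagc
An exonic site with up to 1 mismatch to any of them was found in 8 annotated genes, 5 of which were expressed highly enough to be tested. ESRG, a primate noncoding RNA gene of hESCs that lies over a HERVH copy at chr3:54666149-54673884 on the minus strand of GRCh37, held an exonic site for SHHERVH_3 and SHHERVH_4 and an intronic one for SHHERVH_12.

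The targets of both perturbations were read first. CHD7 (ENSG00000171316, chr8:61591299-61780587) had 626 and 514 CPM, that is, read counts scaled to the library size by TMM, in the KD libraries and 197 and 197 CPM in the KO libraries. The groups did not overlap, and CHD7 RNA was higher in KD by 1.53 ± 0.14 on the log2 scale (SE of the fit, n = 2 per group, adjusted p = 4.67e-05). WT cells, given as a reference without a test, had 651 and 650 CPM, so that the KO libraries still held CHD7 reads at a lower level. ESRG had 170 and 158 CPM in KD and 253 and 322 CPM in KO, against 468 and 337 CPM in WT. Both KD values lay below both KO values, but the difference of -0.81 ± 0.18 did not pass the threshold (adjusted p = 0.0142). ESRG overlaps CACNA2D3 on the opposite strand, and since the strand setting of the counting is not given in the sources used here, reads of the pair may be mixed. Of the 5 tested genes with an exonic GapmeR site, 1 was called, against 2.66% of all genes tested in either direction. It was ENSG00000260834, a noncoding RNA gene on the long arm of chromosome 16, where calls were frequent as described further on. This gene had 7.99 and 5.54 CPM in KD and 18.2 and 20.3 CPM in KO. It was not called in a fit of the 4 libraries alone. Over the fits without 1 library its log2 difference ran from -1.86 to -1.27.

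A gene was called when its Benjamini-Hochberg adjusted p in edgeR's quasi-likelihood test was below 0.01 and its difference was at least 2-fold, the thresholds the study names. Of 23474 genes tested, 187 were higher in KD (0.797% of those tested) and 437 were higher in KO (1.86%). Of these, 153 and 367 were protein-coding. Calls in either direction came to 2.66% of genes tested, and counts of calls in the lists below are to be read against these shares. The median log2 difference, KD minus KO throughout, was 1.49 among genes higher in KD and -1.62 among genes higher in KO, and 0.04 over all genes tested. The 2 groups of libraries did not overlap at any of the 624 called genes, while 25.4% of all tested genes lay higher and 24.5% lower in both KD libraries than in both KO libraries. These calls came from a joint fit in which all 8 libraries share 1 estimate of the spread. A fit of the 4 libraries alone, with 2 residual degrees of freedom, called 50 and 134 genes, of which 50 and 133 were among those above. The counts also moved with single libraries: 922 genes were higher in KD and 876 in KO without KD replicate 1, 201 and 682 without KD replicate 2, 35 and 155 without KO replicate 1, and 37 and 104 without KO replicate 2.

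**Figure D1:**
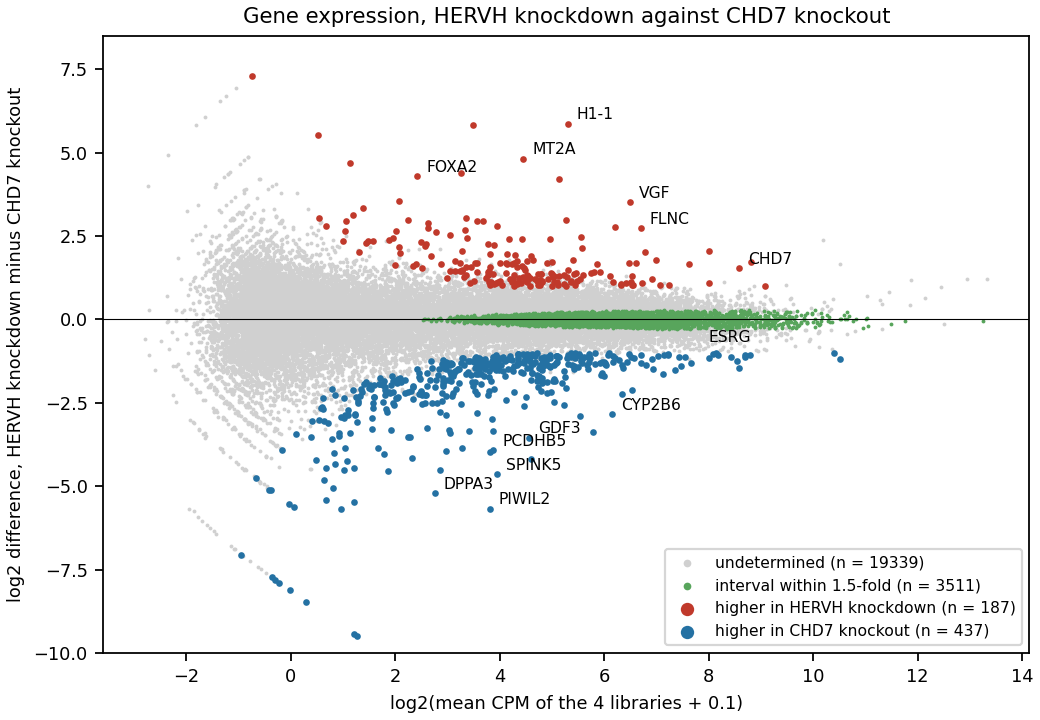
Each point is 1 of the 23474 genes tested, with the log2 of its mean CPM over the 4 libraries plus 0.1 on the x axis and the log2 difference, HERVH knockdown minus CHD7 knockout, on the y axis. Red points (187 genes) were higher in HERVH knockdown, blue points (437) were higher in CHD7 knockout, green points (3511) had a 95% interval within 1.5-fold, and grey points (19339) were undetermined.

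The absence of a call does not show that a gene was alike, so genes without a difference were counted by their interval. In 3511 genes (15.0% of those tested) the 95% interval of the difference lay wholly within 1.5-fold in either direction, with an adjusted p of at least 0.05. Such intervals were more common at high expression. Among 6316 genes with a mean log2 CPM of at least 5, 2694 (42.7%) were within 1.5-fold, 132 were called and 3490 were undetermined. The median width of their interval was 0.743 on the log2 scale. Counts within 1.5-fold in the lists below are to be read against these shares. The count within 1.5-fold was 1491 in the fit of the 4 libraries, 1238 without KO replicate 1 and 1414 without KO replicate 2. Replicates were closer in KO than in KD, with a median SD of log2 CPM of 0.0922 and 0.23 over those 6316 genes. It was 0.105 in WT and 0.0618 in the HERVH element deleted libraries. The shared spread thus rests partly on libraries that vary less than KD, so that intervals may be too narrow for the KD cells. The class given for each gene named below is that of the joint fit.

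The gene with the lowest p was H1-1 (ENSG00000124610, chr6:26017260-26018015), which encodes a linker histone. It had 63.1 and 92.1 CPM in KD and 1.43 and 1.18 CPM in KO, a log2 difference of 5.88 ± 0.26 (adjusted p = 6.87e-08). WT cells had 81 and 84.4 CPM, near the KD libraries. VGF (ENSG00000128564), a neurosecretory protein induced by growth factors, had 139 and 194 CPM in KD and 13.5 and 15.5 CPM in KO, and here WT, at 16.1 and 13.8 CPM, lay near the KO libraries. The difference was 3.52 ± 0.20 (adjusted p = 1.64e-06). FLNC (ENSG00000128591), the filamin C gene, whose product crosslinks actin, had 165 and 197 CPM in KD and 25.6 and 28.9 CPM in KO. It was higher in KD by 2.73 ± 0.17 (adjusted p = 2.55e-06), with WT between the groups at 55.4 and 67.5 CPM. In each of these 3 genes both KD libraries stood far above both KO libraries, and the call held without any 1 of the 4 libraries and in the fit of the 4 libraries.

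Other genes at the head of the list also differed in where WT lay. TEK, the angiopoietin receptor, had 20.6 and 20.8 CPM in KD, 2.73 and 2.58 CPM in KO and 26.3 and 27.5 CPM in WT. AACSP1, a transcribed pseudogene, had 19.5 and 23.9 CPM in KD, 0.0924 and 0.699 CPM in KO and 16.6 and 20.9 CPM in WT. ZNF619, a zinc finger gene, had 7.34 and 7.79 CPM in KD and 0.693 and 0.592 CPM in KO, with 10.5 and 8.37 CPM in WT. In these 3, the KO libraries were the ones that stood away from WT. By contrast, the noncoding RNA gene MIR4435-2HG had 19.5 and 16.5 CPM in KD and between 1.85 and 2.47 CPM in all KO and WT libraries. VIM, the intermediate filament vimentin, had 184 and 168 CPM in KD, 41.9 and 45.6 CPM in KO and 94.1 and 95.9 CPM in WT. SOCS2, a feedback inhibitor of cytokine receptors, had 80.4 and 75.1 CPM in KD, 18.6 and 16.4 CPM in KO and 47.5 and 45.3 CPM in WT. PDGFA, a growth factor, was similar, at 52.3 and 52.1 CPM in KD, 9.8 and 9.9 CPM in KO and 28.8 and 22.8 CPM in WT. For these last 3 genes WT lay between the groups. Their log2 differences were 2.01 ± 0.15, 2.15 ± 0.16 and 2.40 ± 0.19, with adjusted p-values of 5.9e-06, 9.03e-06 and 1.01e-05. FOXA2, a transcription factor of endoderm, had 10.3 and 9.69 CPM in KD and 0.324 and 0.699 CPM in KO, and its 2 WT values differed, at 1.39 and 4.96 CPM. FOXA2 was higher in KD by 4.30 ± 0.58 (adjusted p = 0.00055), with an adjusted p of 0.0129 without KO replicate 1.

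PIWIL2 and DPPA3 were among the genes with the largest differences toward KO. PIWIL2 (ENSG00000197181), which encodes a protein that binds piRNAs and silences transposons in germ cells, had 28.1 and 26.7 CPM in KO and 0.602 and 0.437 CPM in KD. Its log2 difference was -5.68 ± 0.46 (adjusted p = 5.9e-06), and WT, at 0.462 and 0.702 CPM, lay with KD. DPPA3 (ENSG00000187569), a maternal and germ cell factor that protects DNA methylation, had 12.1 and 13.9 CPM in KO and 0.383 and 0.291 CPM in KD, a difference of -5.22 ± 0.44 (adjusted p = 5.9e-06). Its neighbour on chromosome 12, GDF3 (ENSG00000184344), a ligand of the TGF-beta family, had 43.8 and 42.7 CPM in KO and 3.45 and 3.93 CPM in KD. The difference for GDF3 was -3.55 ± 0.24 (adjusted p = 4.2e-06), and WT, at 2.54 and 3.37 CPM, lay with KD as for DPPA3 at 0.693 and 0.842 CPM. DPPA2, a further pluripotency and germ cell gene, had 8.27 and 11.4 CPM in KO and 1.7 and 2.4 CPM in KD, a difference of -2.27 ± 0.35 (adjusted p = 0.00185), which was not called without KO replicate 2 (adjusted p = 0.0243). The calls of PIWIL2, DPPA3 and GDF3 held without any 1 library.

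Other named genes higher in KO encode enzymes, secreted proteins and nuclear proteins. CYP2B6, a drug-metabolizing cytochrome P450, had 129 and 121 CPM in KO and 19.3 and 15.6 CPM in KD (-2.84 ± 0.18, adjusted p = 2.84e-06). CPS1, the first enzyme of the urea cycle, had 61.6 and 66.4 CPM in KO and 11.1 and 10.3 CPM in KD (-2.58 ± 0.18, adjusted p = 5.9e-06). SPINK5, a protease inhibitor of the epidermis, had 23.6 and 35.4 CPM in KO and 1.42 and 0.874 CPM in KD. All 3 were low in WT as well, with 22.4 and 18.6 CPM, 12.7 and 11.5 CPM, and 3.83 and 1.82 CPM. SMOC2, a secreted matrix protein, had 27 and 25.2 CPM in KO and 1.15 and 2.26 CPM in KD. The cell death regulator CFLAR had 12.4 and 16.7 CPM in KO and 1.1 and 0.728 CPM in KD. SP140L, a nuclear body protein, had 16.8 and 18.9 CPM in KO and 1.42 and 1.02 CPM in KD, and SLFN13, an RNase of the Schlafen family, had 80.1 and 83.8 CPM in KO and 11.6 and 10.2 CPM in KD. The noncoding RNA gene LINC01487 reached 94 and 106 CPM in KO, against 11.4 and 7.87 CPM in KD and 10.8 and 10.3 CPM in WT. Each of these genes was called in every one of the 4 fits that left out a library.

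WT levels lay on both sides. WT libraries entered neither mean of the contrast, but shared in the filter, the scaling and the estimate of the spread behind the calls. On the log2 scale after adding 0.1 CPM, the WT mean was nearer to KD in 101 and nearer to KO in 86 of the 187 genes higher in KD. Among the 437 genes higher in KO it was nearer to KD in 210 and nearer to KO in 227. It lay above both groups in 20 and below both in 10 of the 187, and above both in 23 and below both in 29 of the 437. These positions are descriptions without a test.

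**Figure D2:**
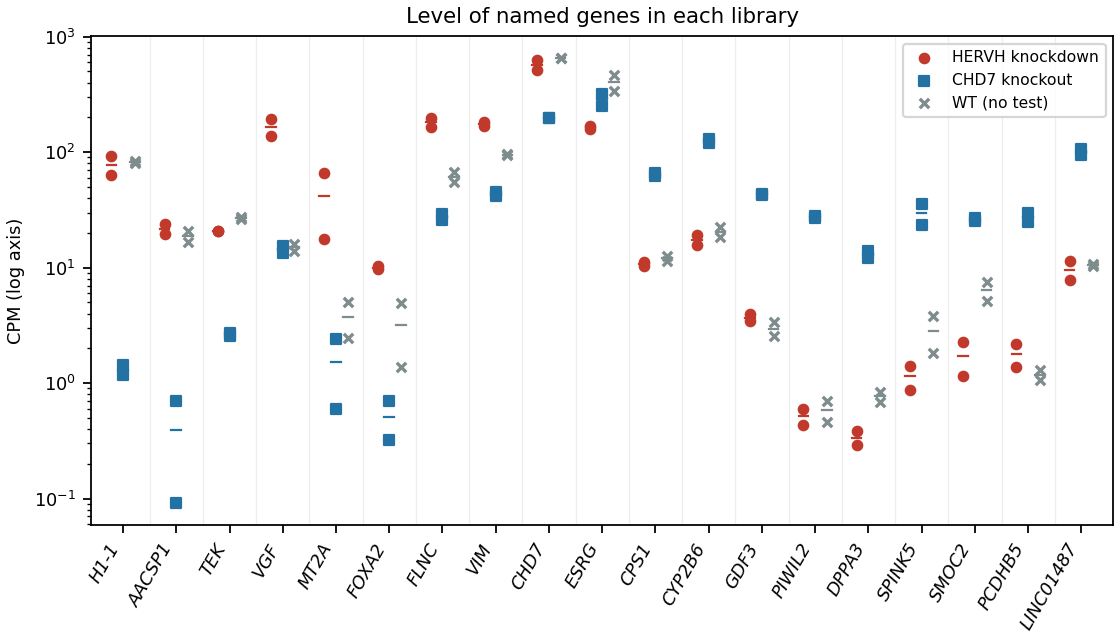
CPM on a log axis of 19 genes in each library of HERVH knockdown (red circles), CHD7 knockout (blue squares) and WT (grey crosses), with a short line at the mean of each pair. H1-1, AACSP1 and TEK have WT near HERVH knockdown, VGF has WT near CHD7 knockout, and GDF3, PIWIL2, DPPA3 and PCDHB5 are high in CHD7 knockout alone among these 3 groups.

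Of the 10 chromodomain remodellers, 2 were called, against 2.66% of all genes tested in either direction. They were CHD7 itself and CHD3, while CHD1, CHD1L, CHD4 and CHD8 were within 1.5-fold. CHD4, the remodeller of the NuRD repressor complex, had 627 and 657 CPM in KD and 658 and 612 CPM in KO, a difference of 0.02 with a 95% interval inside 1.5-fold. CHD8, a relative tied to neurodevelopment, had 420 and 386 CPM in KD and 400 and 337 CPM in KO. CHD3 had 51.6 and 65.8 CPM in KD and 115 and 125 CPM in KO, a difference of -1.04 ± 0.16 (adjusted p = 0.00199). Among 13 NuRD subunits, 7 were within 1.5-fold (MTA1, MTA3, CHD4, HDAC1, HDAC2, RBBP4 and GATAD2A) and 2 were called, CHD3 and GATAD2B. Both were higher in KO, a share of 15.4% against 1.86% of all genes tested. GATAD2B had 74.8 and 60.4 CPM in KD and 140 and 142 CPM in KO, a difference of -1.06 ± 0.16 (adjusted p = 0.00151). GATAD2B lies on the long arm of chromosome 1, whose genes were shifted as described further on. Both CHD3 and GATAD2B lost their call in the fit of the 4 libraries and without either KO replicate, with adjusted p-values up to 0.0285 and 0.0225.

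Coactivators that work at enhancers with such remodellers were measured next. Of 22 genes, 12 were within 1.5-fold, among them the acetyltransferases EP300 and CREBBP, the H3K4 methyltransferase KMT2D, and the SWI/SNF subunits SMARCA4, ARID1A, PBRM1 and SMARCC1. EP300 had 518 and 347 CPM in KD and 485 and 443 CPM in KO, and its groups overlapped. Its difference ran from -0.48 to 0.16 over the fits without 1 library. KMT2D had 554 and 677 CPM in KD and 556 and 526 CPM in KO, a difference of 0.19 ± 0.15. The 2 called members were both higher in KO (9.09%, against 1.86% of all genes tested) and both SWI/SNF subunits. SMARCA2, the alternative ATPase of that complex, had 3.94 and 3.28 CPM in KD and 12.3 and 13.7 CPM in KO (-1.84 ± 0.31, adjusted p = 0.0034), and BRD7 had 71.8 and 45.6 CPM in KD and 136 and 125 CPM in KO (-1.15 ± 0.21, adjusted p = 0.00491). Without KO replicate 1 or without KO replicate 2, neither was called, with adjusted p-values up to 0.0334 and 0.0485.

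Genes that silence retroelements, the pathway that keeps HERVH and other endogenous retroviruses in check, gave no call in edgeR among 18 tested. At an unadjusted p below 0.05 there were 6, against 25.8% of all genes tested, and DESeq2 called 0. DNMT1, DNMT3B, KDM1A, MORC2, TASOR, MPHOSPH8, PPHLN1, CBX3, CBX5, SUV39H2 and ZNF91 were within 1.5-fold. DNMT1, the maintenance DNA methyltransferase, had 385 and 404 CPM in KD and 407 and 345 CPM in KO. TRIM28, the corepressor of KRAB zinc finger proteins, had 1090 and 1680 CPM in KD and 1040 and 899 CPM in KO, which left it undetermined at 0.52 ± 0.19 (adjusted p = 0.102). For the H3K9 methyltransferase SETDB1 the difference was -0.78, and it lies on the long arm of chromosome 1.

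The pluripotency factors NANOG, SOX2 and LIN28A were within 1.5-fold between the groups. NANOG had 87 and 64.4 CPM in KD and 82.3 and 81.1 CPM in KO, a difference of -0.11 ± 0.17. SOX2 had 237 and 225 CPM in KD and 289 and 232 CPM in KO, a difference of -0.18 ± 0.15. LIN28A, an RNA-binding protein that blocks let-7 maturation, had 1920 and 2300 CPM in KD and 2260 and 1870 CPM in KO. The KD and KO values of each of these 3 overlapped. POU5F1 had 829 and 1470 CPM in KD and 1090 and 965 CPM in KO, so that the KD replicates enclosed the KO values and the gene was undetermined. In all, 11 of 27 tested pluripotency genes (40.7%) were within 1.5-fold, also including ZFP42, PRDM14, TDGF1, SALL4, DNMT3B, ZIC2, THY1 and PODXL. That share was 15.0% over all genes tested and 42.7% over those with a mean log2 CPM of at least 5. The 3 called were GDF3 and DPPA2, both higher in KO, and the Nodal antagonist LEFTY2, higher in KD. The median difference of the list was 0.02, against 0.04 over all genes tested. Without KO replicate 2, GDF3 alone was called, and without KO replicate 1, GDF3 and DPPA2 were.

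**Figure D3:**
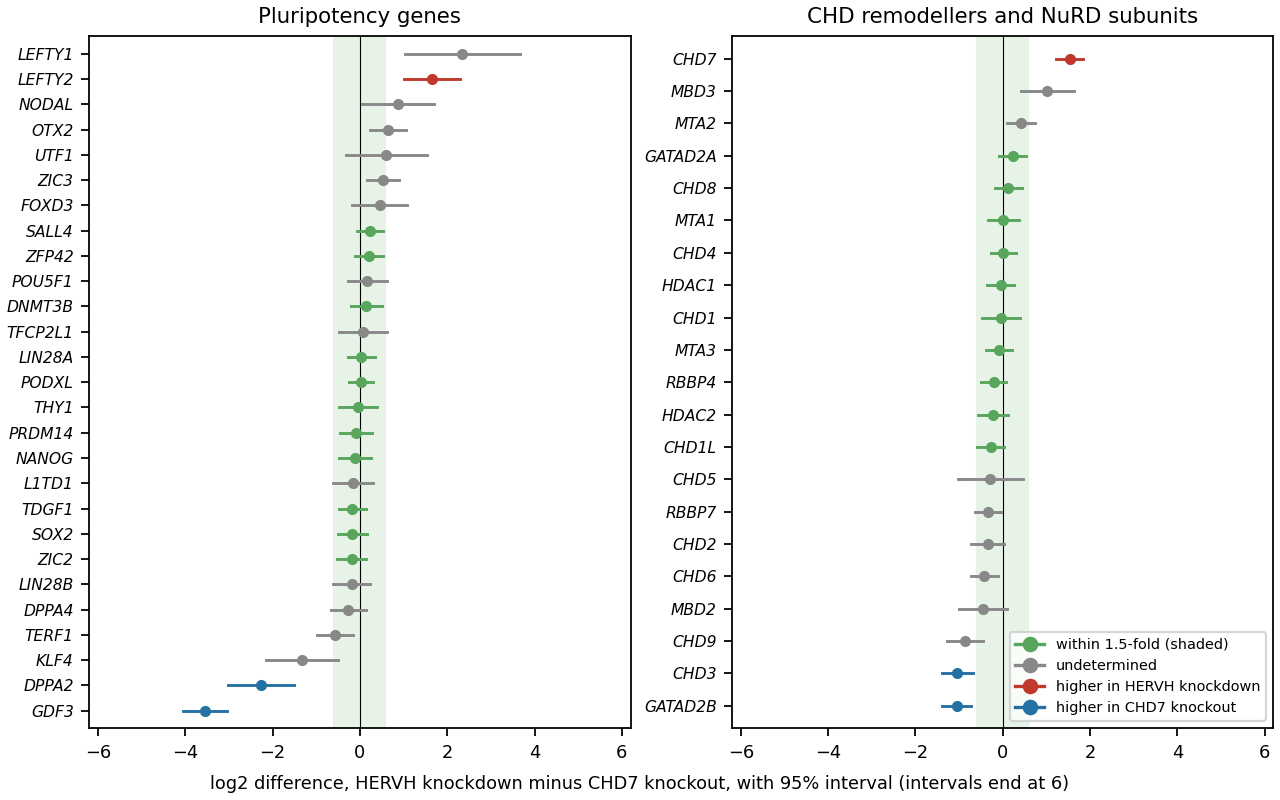
Log2 difference, HERVH knockdown minus CHD7 knockout, with its 95% interval for the 27 pluripotency genes tested (left) and for the tested CHD remodellers and NuRD subunits (right), coloured by call, with the band of 1.5-fold shaded. NANOG, SOX2, LIN28A and CHD4 lie inside the band, GDF3, DPPA2, CHD3 and GATAD2B lie below it, and CHD7 and LEFTY2 lie above it.

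Of 16 markers of differentiated cells, 10 were too low to test, among them SOX1, TBXT, HAND1 and GATA6. Of the 6 tested, FOXA2 was called. PAX6, a neuroectoderm factor, had 1.53 and 0.947 CPM in KD and 0.878 and 2.31 CPM in KO, and AFP, of yolk sac and fetal liver, had 1.81 and 2.11 CPM in KD and 1.57 and 0.699 CPM in KO (adjusted p = 0.724 and 0.357). Among 18 tested genes of the neural crest and of CHARGE-like disorders, edgeR called 0, with 6 at an unadjusted p below 0.05, and DESeq2 called 0. None of them was within 1.5-fold either, so that all 18 were undetermined.

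Secreted ligands and antagonists of the TGF-beta family were called in both directions, and none of the receptors was called. This group of 33 tested genes covers Nodal, activin, TGF-beta and BMP signalling, which hold hESCs in the pluripotent state or drive them out of it. Among ligands, TGFB1 had 31.8 and 27.2 CPM in KD and 10.5 and 7.64 CPM in KO (1.70 ± 0.22, adjusted p = 0.000681), and BMP2 had 10.4 and 13.6 CPM in KD and 4.44 and 4.25 CPM in KO (1.46 ± 0.25, adjusted p = 0.00379). In the other direction, INHBE, an inhibin subunit induced by stress in liver cells, had 4.38 and 9.69 CPM in KD and 25.3 and 37.4 CPM in KO, as had GDF3 described above. Among secreted antagonists, FST, which binds activin, had 40.5 and 35.4 CPM in KD and 12.1 and 8.39 CPM in KO (1.89 ± 0.24, adjusted p = 0.000563). LEFTY2 had 8.16 and 13.8 CPM in KD and 3.47 and 3.5 CPM in KO (1.65 ± 0.30, adjusted p = 0.00493), and GREM1, a BMP antagonist, had 3.83 and 3.2 CPM in KD and 0.37 and 0.538 CPM in KO. The receptors ACVR1B, TGFBR1, TGFBR2 and BMPR1A and the coreceptor TDGF1 were within 1.5-fold. SMAD3, which carries the signal of activin and TGF-beta, had 47 and 45.7 CPM in KD and 34.8 and 41 CPM in KO, which was undetermined (adjusted p = 0.302). The target genes ID1, ID2, ID3, SMAD7 and TGFBI were undetermined. In all, 6 genes were higher in KD (18.2%) and 2 in KO (6.06%), against 0.797% and 1.86% of all genes tested. The median was -0.03 against 0.04 over all genes. The fit of the 4 libraries called 3 and 2, and the counts were 9 and 4 without KD replicate 1, 6 and 3 without KD replicate 2, 3 and 2 without KO replicate 1, and 1 and 1 without KO replicate 2.

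Neuronal genes were called in both directions. Of 27 tested, 3 were higher in KD (11.1%) and 10 in KO (37%), against 0.797% and 1.86% of all genes tested. The median difference was -0.38, against 0.04 over all genes tested. Genes over 500 kb were also called higher in KO more often, as described further on. The part of gene length in this list was not tested. The list was chosen with earlier results of these data known, so that its shares describe its members and do not test neuronal genes as a class. Those higher in KO included synaptic, adhesion and channel genes and markers of young neurons, namely SLITRK3, KCNN3, SYT4, NRXN3, GRIN2B, CNTN1, DCX, ELAVL4 and GAP43. SLITRK3, a synaptic adhesion protein, had 0.712 and 0.801 CPM in KD and 7.86 and 9.63 CPM in KO (-3.53 ± 0.39, adjusted p = 0.000129). KCNN3, a calcium-activated potassium channel, had 3.07 and 2.48 CPM in KD and 14.7 and 17.8 CPM in KO (-2.54 ± 0.27, adjusted p = 0.000135). In both, WT lay nearer to KO, at 4.94 and 3.79 CPM and at 16.3 and 11.4 CPM. ELAVL4, a neuronal RNA-binding protein, had 0 counts in both KD libraries and 1.76 and 1.08 CPM in KO, which is at least 6.48-fold higher in KO against a floor of 3 counts per library. The 3 genes that were higher in KD were the neurosecretory proteins VGF and CHGA and the tubulin TUBB3. CHGA, chromogranin A, had 177 and 216 CPM in KD and 50.2 and 62.8 CPM in KO (1.80 ± 0.18, adjusted p = 0.000102), and TUBB3 had 13.4 and 21.1 CPM in KD and 3.51 and 1.78 CPM in KO (2.69 ± 0.39, adjusted p = 0.00123). CNTN1, DCX, NRXN3, GRIN2B, SYT4, GAP43 and CHGA lie outside the rule for named genes and were chosen after their values were seen. The fit of the 4 libraries called 3 and 5 of these genes, and the counts were 3 and 4 without KO replicate 1 and 2 and 4 without KO replicate 2.

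FLNC and TAGLN were the called genes among cytoskeletal targets of SRF and YAP, 6.9% of the list against 0.797% of all genes tested. TAGLN, the actin-binding protein transgelin, had 55 and 105 CPM in KD, 15.5 and 13.3 CPM in KO and 15 and 22 CPM in WT (2.47 ± 0.27, adjusted p = 0.000255). These were the 2 called of 29 tested, both higher in KD, and both were also called without any 1 library. The widely expressed members ACTN1, ACTN4, TPM4, VCL, SRF and LATS2 were within 1.5-fold. VCL, vinculin, had 973 and 1040 CPM in KD and 883 and 892 CPM in KO, and ACTB had 3390 and 5130 CPM in KD and 3350 and 2960 CPM in KO, which was undetermined. The list had a median of 0.36, which was 0.16 for KD replicate 1 and 0.61 for KD replicate 2 against the KO mean.

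Metallothioneins, small proteins that bind zinc and copper and are induced by metals and stress, had the highest median of the lists by function, 2.71 over 6 tested genes. MT2A (ENSG00000125148) had 17.8 and 66.1 CPM in KD, 0.601 and 2.42 CPM in KO and 5.03 and 2.48 CPM in WT (4.82 ± 0.63, adjusted p = 0.000743). MT1M had 1.81 and 6.26 CPM in KD and 0.185 and 0.108 CPM in KO, MT1E had 4.27 and 12.1 CPM in KD and 0.786 and 1.29 CPM in KO, and MT1F had 4.93 and 7.87 CPM in KD and 0.693 and 1.67 CPM in KO. All 4 were called higher in KD (66.7% of those tested, against 0.797% of all genes) and had their higher value in KD replicate 2. The KO values of MT1M lay near the floor of 3 counts, which was 0.139 and 0.161 CPM in those libraries. MT1X and MT1G were undetermined, at -0.01 and 0.62. With genes limited to a mean log2 CPM of at least 1, 4 metallothioneins were tested and 1 was called. The 4 calls became 2 in the fit of the 4 libraries, 2 without KD replicate 2, 1 without KO replicate 2 and 0 without KO replicate 1, where MT2A had an adjusted p of 0.0127. The genes of this family are near-identical neighbours on chromosome 16, and how reads were shared between them is uncertain.

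The promoters of MT2A, which was called, and MT1X, which was undetermined, are shown because both carry copies of the metal response element, the site of the zinc sensor MTF1. The element was searched as TGCNCNC on both strands, in RefSeq windows of 300 bases from 250 before the gene start to 50 after it (GRCh38.p14), and its copies are in capitals:
MT2A, chr16:56608334-56608633, plus strand: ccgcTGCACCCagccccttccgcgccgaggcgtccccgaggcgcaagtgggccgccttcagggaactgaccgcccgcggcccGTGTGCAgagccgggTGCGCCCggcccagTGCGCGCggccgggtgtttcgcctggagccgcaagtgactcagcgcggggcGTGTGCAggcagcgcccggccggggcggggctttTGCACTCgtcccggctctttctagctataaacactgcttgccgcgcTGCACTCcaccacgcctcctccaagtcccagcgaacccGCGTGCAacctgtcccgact
MT1X, chr16:56682220-56682519, plus strand: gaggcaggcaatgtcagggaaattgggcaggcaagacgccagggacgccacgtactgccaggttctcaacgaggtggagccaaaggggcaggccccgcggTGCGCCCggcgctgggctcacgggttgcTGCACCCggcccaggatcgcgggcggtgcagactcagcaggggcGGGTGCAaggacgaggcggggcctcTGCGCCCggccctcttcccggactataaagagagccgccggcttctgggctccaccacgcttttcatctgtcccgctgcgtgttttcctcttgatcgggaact
MT2A held 8 copies and MT1X held 4. Of all 35116 such promoter windows, 0.0712% held at least 8 copies, 2.94% at least 4 and 55.9% at least 1. Promoter windows were found for 4 of the 10 metallothioneins, and each held at least 4 copies. A match of letters is a description of the sequence and does not show that the site is bound.

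Linker histones, which compact chromatin between nucleosomes, held calls in both directions. Of 8 tested, 1 was higher in KD (12.5%) and 2 in KO (25%), against 0.797% and 1.86% of all genes tested. Besides H1-1, which was higher in KD, H1-3 had 39.7 and 89.7 CPM in KD and 180 and 180 CPM in KO (-1.48 ± 0.28, adjusted p = 0.00632). WT values of H1-3, at 183 and 130 CPM, were above both KD values. H1-2, H1-4, H1-5, H1-6 and H1-10 were undetermined, and in H1-5 the KD replicates, with 199 and 474 CPM, enclosed the KO values of 376 and 297 CPM. H1-3 was not called without KO replicate 1 or without KO replicate 2, with adjusted p-values up to 0.0381.

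**Figure D4:**
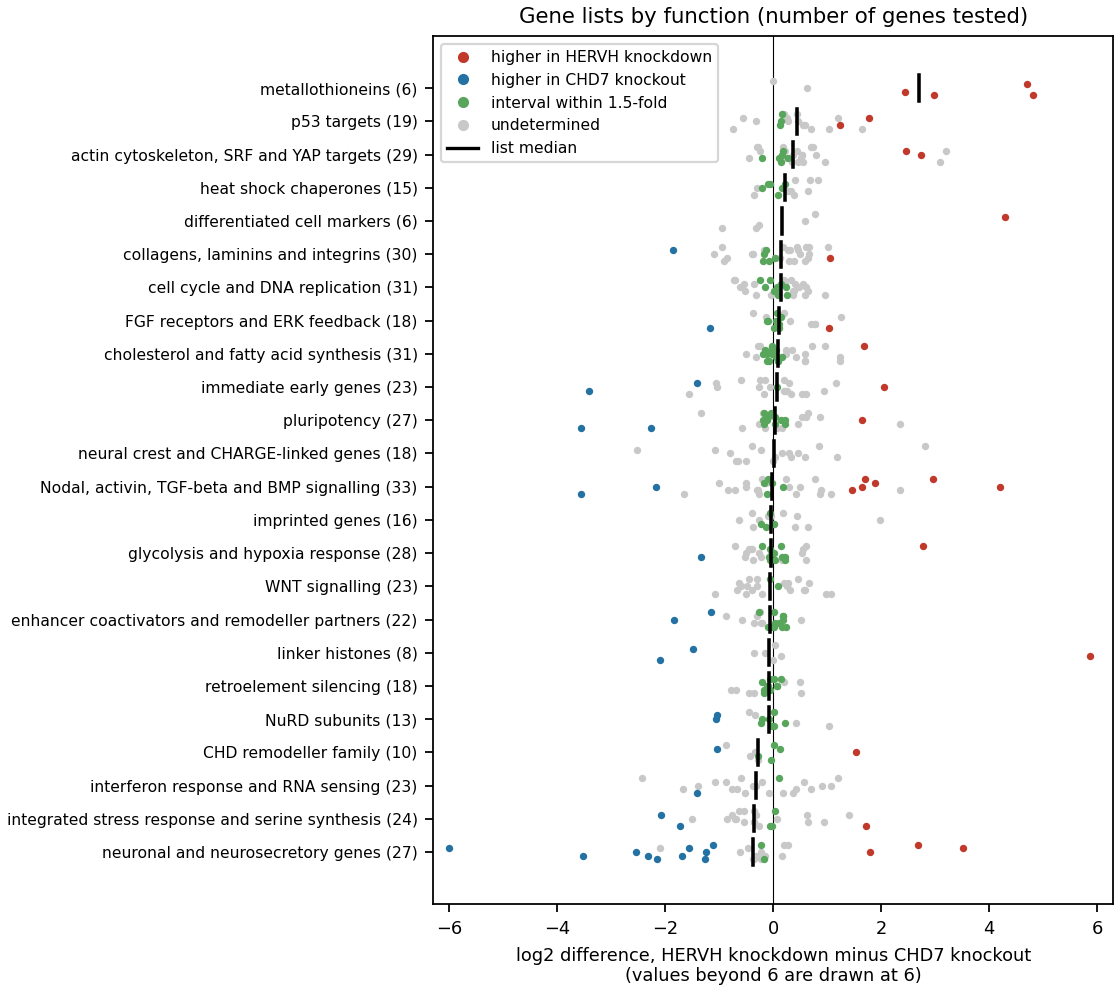
Each row is a list of genes by function and each point a tested member at its log2 difference, HERVH knockdown minus CHD7 knockout, coloured by call, with a black line at the list's median. The median of the metallothioneins lies at 2.71, that of the neuronal genes at -0.38 with 10 blue and 3 red points, and the medians of most lists lie near 0.

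Immediate early genes, which respond to growth factors and stress within minutes, held 3 calls of 23 tested. Over all genes tested, 2.66% were called in either direction. FOSB had 1.04 and 1.82 CPM in KD, 19.4 and 10.3 CPM in KO and 38.7 and 21.7 CPM in WT (-3.41 ± 0.66, adjusted p = 0.00598). ATF3 had 15 and 18.9 CPM in KD and 38.6 and 51.8 CPM in KO (-1.42 ± 0.25, adjusted p = 0.00437), while FOSL1 had 16.9 and 14 CPM in KD and 3.19 and 4.25 CPM in KO (2.06 ± 0.32, adjusted p = 0.00211). MYC was within 1.5-fold, with 86 and 73.3 CPM in KD and 75.4 and 76 CPM in KO. None of the 3 calls was kept without KO replicate 1 or without KO replicate 2, where adjusted p-values reached 0.0452, 0.0578 and 0.0399. In the FGF and ERK pathway, which sustains self-renewal, the ligand FGF2, the receptors FGFR1 and FGFR2 and the feedback inhibitor SPRY4 were among 8 of 18 genes within 1.5-fold. FGF2 had 118 and 96.5 CPM in KD and 107 and 92 CPM in KO. The 2 called were SPRY1, higher in KD by 1.02 ± 0.20 (adjusted p = 0.00686), and ETV5, higher in KO with a difference of -1.18 ± 0.19 (adjusted p = 0.00237). Neither was called in the fit of the 4 libraries or without KO replicate 2, with adjusted p-values up to 0.0798 and 0.0451.

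In the integrated stress response, 3 of 24 genes were called, against 2.66% of all genes tested in either direction. SLC7A5, the large neutral amino acid transporter, had 509 and 878 CPM in KD, 194 and 225 CPM in KO and 542 and 619 CPM in WT (1.73 ± 0.21, adjusted p = 0.000392), and its call held without any 1 library. CHAC1, which degrades glutathione, had 15.1 and 20.3 CPM in KD and 42.5 and 74.1 CPM in KO, and the mitochondrial folate enzyme ALDH1L2 had 5.53 and 5.68 CPM in KD and 14.4 and 33.3 CPM in KO. Both were higher in KO and neither was called without KO replicate 2 (adjusted p = 0.0352 and 0.0457). ATF4, the central factor of this response, had 274 and 493 CPM in KD and 426 and 370 CPM in KO. It was within 1.5-fold in the joint fit, but the KD replicates enclosed the KO values. Over the fits without 1 library its difference ran from -0.54 to 0.25. Of 19 p53 targets, FDXR and TP53I3 were called higher in KD, at 1.78 ± 0.30 and 1.23 ± 0.22 (adjusted p = 0.00368 and 0.00419), and neither was called without either KO replicate. MDM2, the ubiquitin ligase of p53, had 220 and 143 CPM in KD and 123 and 120 CPM in KO, which was undetermined. Among 15 heat shock chaperones edgeR called 0, with 3 at an unadjusted p below 0.05 and 0 called by DESeq2, and HSPA5, HSPA9, HSP90AA1, HSP90AB1, HSPD1 and HSPE1 were within 1.5-fold. HSPA8 had 4280 and 2840 CPM in KD and 2210 and 1810 CPM in KO, without overlap but below the threshold (0.82 ± 0.19, adjusted p = 0.0181). Of 23 interferon and RNA-sensing genes, RIGI, a sensor of double-stranded RNA, was called, with 7.5 and 5.1 CPM in KD and 16.7 and 17.2 CPM in KO (-1.42 ± 0.24, adjusted p = 0.00334), but not without either KO replicate (adjusted p up to 0.0352).

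In glycolysis and the hypoxia response, 11 of 28 genes (39.3%) were within 1.5-fold, against 42.7% of all genes with a mean log2 CPM of at least 5. Among them was GAPDH, with 1590 and 1400 CPM in KD and 1490 and 1450 CPM in KO. The called genes were ADM, the vasodilator peptide adrenomedullin, with 86.7 and 172 CPM in KD and 21.2 and 16.6 CPM in KO (2.77 ± 0.26, adjusted p = 7.07e-05), and BNIP3L, with 23.2 and 21.6 CPM in KD and 51 and 62 CPM in KO (-1.33 ± 0.23, adjusted p = 0.00409). ADM kept its call without any 1 library and BNIP3L did not without either KO replicate (adjusted p up to 0.0514). In cholesterol and fatty acid synthesis, 13 of 31 genes (41.9%) were within 1.5-fold. MVD was the 1 call, with 89.2 and 183 CPM in KD and 48 and 37 CPM in KO (1.68 ± 0.29, adjusted p = 0.00418), and it was not called without either KO replicate (adjusted p up to 0.0702). Of 31 cell cycle and replication genes, 10 (32.3%) were within 1.5-fold, such as MCM3 with 499 and 577 CPM in KD and 585 and 483 CPM in KO. EdgeR called 0 of the 31 and DESeq2 called 0. At an unadjusted p below 0.05 in edgeR there were 14, a higher share than the 25.8% of all genes tested. Among 81 cytosolic ribosomal protein genes, 43 were within 1.5-fold and the median was 0.19, which was -0.03 for KD replicate 1 and 0.36 for KD replicate 2.

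Clustered protocadherins are cell surface proteins whose single genes are chosen by promoter and enhancer looping in neurons. Of 51 tested, 5 were higher in KO (9.8%), against 1.86% of all genes tested, and the median of the list was -0.67. PCDHB5 had 2.19 and 1.38 CPM in KD, 29.9 and 25 CPM in KO and 1.06 and 1.31 CPM in WT (-3.91 ± 0.29, adjusted p = 6.13e-06). PCDHGA9, PCDHB15, PCDHGA11 and PCDHA11 followed with differences from -1.72 to -1.13. PCDHB5 was called without any 1 library, and it was the 1 protocadherin called without KO replicate 1, without KO replicate 2 and in the fit of the 4 libraries. These genes are similar in sequence and share exons within the alpha and gamma clusters, so that the division of reads among them is uncertain. Among 30 collagens, laminins, integrins and other matrix genes, FBN2 was higher in KD, with 111 and 143 CPM against 59.9 and 62.9 CPM, and COL6A3 was higher in KO, with 13.5 and 22.5 CPM against 3.56 and 6.41 CPM in KD. Neither was called without KO replicate 2, and their adjusted p-values reached 0.0297 and 0.0646 over the fits without 1 library. In WNT signalling edgeR called 0 of 23 and DESeq2 called 0, and SFRP2 and ZNRF3 were within 1.5-fold. At an unadjusted p below 0.05 in edgeR there were 10, a higher share than the 25.8% of all genes tested. Among 16 imprinted genes edgeR called 0, with 5 at an unadjusted p below 0.05 and 0 by DESeq2, and MEST, GRB10, SGCE and GNAS were within 1.5-fold.

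Genes with an exon over a HERVH copy were called higher in KO more often than higher in KD. The study lists 1225 HERVH copies with coordinates, which overlapped an exon of 152 annotated genes, 85 of them tested. Of these, 1 was higher in KD (1.18%) and 12 were higher in KO (14.1%), against 0.797% and 1.86% of all genes tested. Their median was -0.57, against 0.04 over all genes tested. SCGB3A2, a secretoglobin of the airway, had 2.08 and 3.2 CPM in KD, 28 and 24.7 CPM in KO and 1.75 and 1.31 CPM in WT (-3.33 ± 0.28, adjusted p = 2.22e-05). HHLA1, a gene named for its HERVH long terminal repeat, had 5.75 and 5.24 CPM in KD, 29.8 and 28.6 CPM in KO and 11.1 and 7.06 CPM in WT (-2.40 ± 0.25, adjusted p = 0.000117). Both stood higher in KO than in WT as well as in KD. In some other called members WT lay with KO, as in SYN3, a synapsin gene chosen after its values were seen. SYN3 had 10.1 and 13.5 CPM in KD, 41.3 and 47.2 CPM in KO and 42.5 and 32.6 CPM in WT. The noncoding RNA gene ENSG00000260834, given above, had 21.3 and 15.3 CPM in WT, also near its KO values. The noncoding RNA gene LINC01170 had 0.274 and 0.364 CPM in KD, 2.31 and 3.23 CPM in KO and 0.739 and 0.468 CPM in WT. ENSG00000243004 had 3.34 and 2.33 CPM in KD, 12.6 and 15.5 CPM in KO and 5.96 and 2.15 CPM in WT. In these 2 genes WT lay nearer to KD. ENSG00000260362 had 0.876 and 0.728 CPM in KD and 3.33 and 4.73 CPM in KO, with WT between the groups at 2.22 and 2.24 CPM. The 1 gene higher in KD was ZNF107, a zinc finger gene chosen after its values were seen, with 75.6 and 52.3 CPM in KD and 24.6 and 23.8 CPM in KO (1.40 ± 0.19, adjusted p = 0.000792). The fit of the 4 libraries called 6 of the 85, all higher in KO, and the count higher in KO was 20 without KD replicate 1, 18 without KD replicate 2, 4 without KO replicate 1 and 4 without KO replicate 2. HERVH copies outside annotated genes are not features of these counts and were not analysed here.

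Position and length also went with the difference. Of 1043 tested genes on the long arm of chromosome 1, 4 were higher in KD (0.384%) and 76 in KO (7.29%), against 1.14% higher in KO on the short arm. Among its 323 genes with a mean log2 CPM of at least 5 the median difference was -0.52, and it was -0.49 for KD replicate 1 and -0.52 for KD replicate 2. WT minus KO was -0.54 and HERVH element deleted minus KO was -0.53 there, so that the KO libraries stood apart from the other 3 groups along this arm. The 4 genes higher in KD against this shift were LEFTY2, the calcium channel gene RYR2, the signalling regulator RGS5 and the muscle actin gene ACTA1, the last 3 chosen after their values were seen, with differences of 1.65, 1.21, 1.16 and 1.45. The part of this shift in the calls for single genes of the arm, GATAD2B, KCNN3, TLR5 and PPFIA4 among them, was not tested. Leaving out the genes of this arm and of chromosome 16 gave 140 genes higher in KD and 356 in KO. Calls higher in KD then fell from 1 to 0 in the integrated stress response (SLC7A5) and in cholesterol and fatty acid synthesis (MVD). Among neuronal genes they fell from 3 to 2. Calls higher in KO fell from 2 to 1 among the coactivators, the NuRD subunits and the immediate early genes. Other calls higher in KD fell from 6 to 5 in the TGF-beta group. They fell from 1 to 0 in the pluripotency, FGF and ERK, and over 500 kb lists. Other calls higher in KO fell from 10 to 9 among neuronal genes and from 12 to 10 among genes over a HERVH copy. Among genes over 500 kb they fell from 31 to 30. The GapmeR site list lost its 1 call. The metallothioneins lie on chromosome 16, so that 0 of them were left to test. The part of position in the calls of these lists was not tested. The count of 76 was 26 in the fit of the 4 libraries, 137 without KD replicate 1, 34 without KO replicate 1 and 24 without KO replicate 2. On the long arm of chromosome 16, 25 of 461 genes were higher in KD (5.42%) and 18 in KO (3.9%), the metallothioneins included. The shares of all genes tested were 0.797% and 1.86%. The whole of chromosome 16 held 28 and 23 calls, which became 6 and 5 in the fit of the 4 libraries, 112 and 33 without KD replicate 1, 22 and 37 without KD replicate 2, 3 and 7 without KO replicate 1, and 3 and 5 without KO replicate 2. CDH13, a cadherin of that arm, had 0.0548 and 0.146 CPM in KD and 3.47 and 2.15 CPM in KO, at least 12.9-fold higher in KO. Its call was lost without KO replicate 1 (adjusted p = 0.0153).

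Genes higher in KO were long and genes higher in KD were rich in GC. The median span was 73.5 kb for genes higher in KO, 18 kb for genes higher in KD and 18.1 kb for all tested. The median exonic GC content was 45.1%, 55.2% and 47.6% in the same order. Genes within 1.5-fold had a median span of 45 kb and a median GC content of 45%. Against these, genes higher in KD were short, and genes higher in KO were longer by less than against all genes tested. The part of gene type and expression level in these spans was not tested. Of 273 tested protein-coding genes over 500 kb, 1 was higher in KD and 31 in KO (11.4%), against 1.86% higher in KO over all genes tested. Their median was -0.44. The 1 higher in KD was RYR2, with 75.4 and 54 CPM in KD and 22.7 and 33.2 CPM in KO. LHFPL3, FHIT and AGBL4 were among the 31, the last with 0.548 and 0.364 CPM in KD and 3.47 and 3.44 CPM in KO. The count of 31 was 10 in the fit of the 4 libraries, 44 without KD replicate 1, 12 without KO replicate 1 and 10 without KO replicate 2. The association with GC content was seen in 1 of the 2 KD libraries. In 10 bins of genes by GC content, the median difference from the KO mean ran from -0.433 to 0.783 in KD replicate 2 and stayed between -0.005 and 0.04 in KD replicate 1. Across 10242 genes, Spearman's rho between GC content and the difference of KD replicate 2 from replicate 1 was 0.747, a description over genes that share 2 libraries and are not independent. In KD replicate 2 the 10 most abundant genes took 8.87% of the reads, against 4.65% to 4.73% in the other 3 libraries. With values corrected for GC content by loess, 273 genes were higher in KD and 648 in KO, 154 and 391 of them among the genes called without it, and 5452 were within 1.5-fold.

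**Figure D5:**
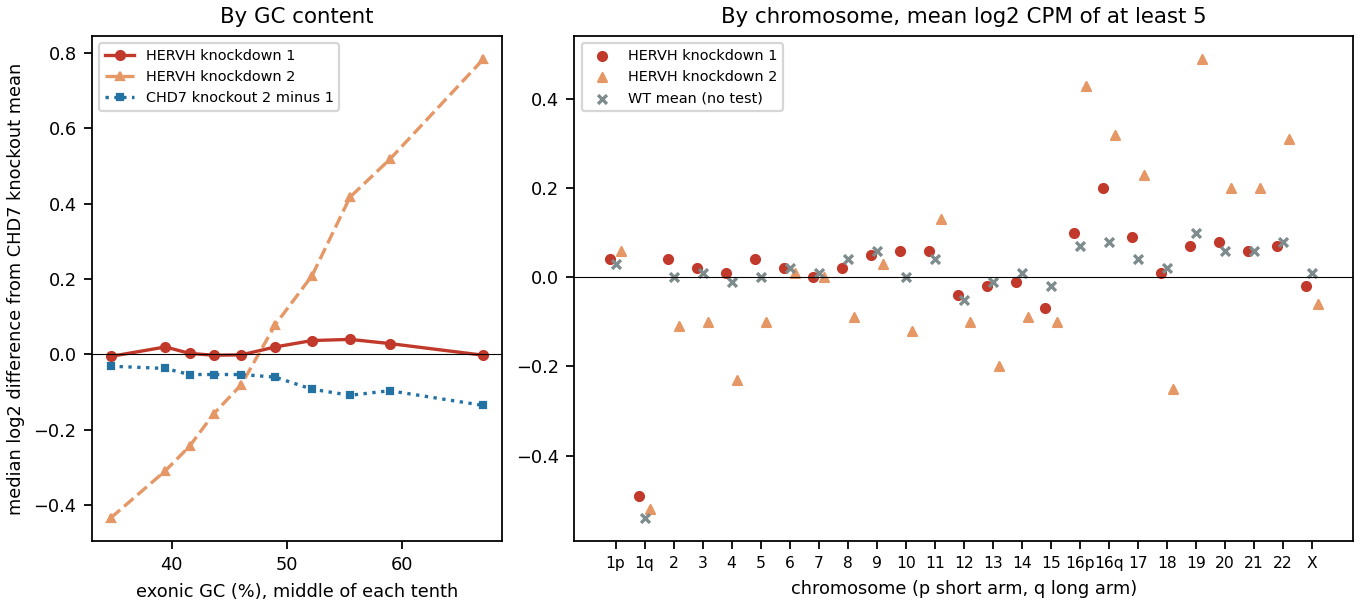
Left, median log2 difference from the CHD7 knockout mean in 10 bins of genes by exonic GC content for each HERVH knockdown replicate, with CHD7 knockout replicate 2 minus 1 for scale. Right, the median difference of well-expressed genes from CHD7 knockout by chromosome or arm for each HERVH knockdown replicate and the WT mean, in which the long arm of chromosome 1 lies between -0.54 and -0.49 in all 3.

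Of 91 called genes that the naming rule chose, 41 were called in each of the 4 fits that left out 1 of the compared libraries, 14 in 3, 27 in 2, 8 in 1 and 1, the microRNA gene MIR554, in 0. Most lost calls were lost without a KO replicate.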

How the data were processed

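RNA-seq libraries of H9 cells in 4 groups of 2 (WT, CHD7 KO, HERVH KD and HERVH element deleted) were taken from the series, grouped by their labels. Libraries were depleted of rRNA and kept the strand. The authors aligned reads with STAR to hg19, using Ensembl genes, and used HTSeq-count for the counts per gene. As deposited, these are raw whole-number counts for 57773 genes. Tool versions and the strand setting of the counting are not given in the sources used here. The summary rows of HTSeq, 34.9% to 42.5% of reads outside genes and 3.81% to 4.75% ambiguous in the 4 libraries compared, were left out. Reads on genes numbered 17784957 and 14802049 in KD and 22180918 and 18093439 in KO, so that 3 counts were 0.139 to 0.218 CPM, a floor that covers counting error only. The 37 mitochondrially encoded genes had 0 counts in every library.

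Counts were scaled by TMM, filtered with filterByExpr and tested with edgeR 4.0.16 (quasi-likelihood test, group as the sole factor, contrast KD minus KO) in R 4.3.3 with limma 3.58.1. All 8 libraries entered the fit, which leaves 4 residual degrees of freedom, and WT and deleted libraries entered neither side of the contrast. P-values were adjusted by Benjamini-Hochberg over 23474 genes. Intervals are 95% t intervals of the fit, and log2 CPM had a prior count of 2. Symbols, positions and GC content came from GENCODE on GRCh37, which placed 55538 genes, and promoters from RefSeq on GRCh38.p14. Figures were drawn with Python 3.11.15, pandas 2.3.3, numpy 2.4.6 and matplotlib 3.10.9. The procedure was tested on simulated data.

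Named genes are CHD7, ESRG and FLNC, the 12 called genes with the largest difference (mean log2 CPM of at least 1, groups without overlap) and the 12 with the lowest p in each direction, up to 4 called or else highest-expressed members of each list (6 for lists by position or sequence), up to 10 genes within 1.5-fold with the narrowest intervals in each list, and genes the study names beside RNA-seq. Other list members that are called or within 1.5-fold are named without further choice or were chosen after their values were seen. A few items are not reported here. The comparison and the lists were chosen with earlier results of these data known.

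Alternatives were RLE scaling, DESeq2 1.42.0, other filters, the 4 libraries alone, the replicate block, other thresholds, correction for GC content by loess (span 0.3), exclusion of the chromosome 1 long arm and chromosome 16, and each library left out in turn.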

Additional observations from a re-analysis of the deposited data

How the results depend on the processing

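Counts of genes higher in KD and higher in KO kept within 1.5 times of 187 and 437 under RLE scaling, a mean log2 CPM of at least 1, no fold limit, the replicate block (216 and 460), correction for GC content and exclusion of the chromosome 1 long arm and chromosome 16. They moved further with DESeq2 (355 and 658), an FDR below 0.05 (502 and 868), no filter beyond 1 count (480 and 847) and the 4 libraries alone (50 and 134), and over the fits without 1 library they ran from 35 to 922 and from 104 to 876. Genes within 1.5-fold, 3511 in the joint fit, were 1491 with the 4 libraries alone, 5452 with the GC correction and 1238 to 4929 without 1 library. The cause of these moves was not tested. The share of calls that were higher in KD was 30% in the joint fit, 51.3% without KD replicate 1 and 18.4% without KO replicate 1.

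Deviations of same-numbered KD and KO replicates from their group means correlated at -0.205 over 6316 genes. With 2 replicates per group, this value cannot show whether same-numbered samples were handled together. A block with the numbers crossed, chosen after seeing the data, gave 306 genes higher in KD and 572 in KO. Of all values recomputed under these alternatives, 140 lost a call, 5 gained one and 37 moved by more than the limit. Of 245 genes chosen by the naming rule, 83 had a log2 difference that changed sign under at least 1 alternative, 0 of them among the called genes, and 14 of 32 list medians did so. Of the 19339 genes neither called nor shown to be within 1.5-fold, 3490 had a mean log2 CPM of at least 5, and the parts of depth and of the spread between KD replicates were not tested.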
